A study of Homo sapiens with 6 samples.

Results

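The sites of p300 on chromatin were described in 786-O cells by chromatin immunoprecipitation followed by sequencing (ChIP-seq). The members are the peaks of the p300 list on chromosomes 1 to 22 and X, without those whose summit, the position of highest read pileup, fell in a coding exon and over 2000 bp away from every protein-coding start, both taken from canonical transcripts. Of 20380 deposited p300 peaks, 20344 lay on these chromosomes, 885 of them (4.35%) were left out by the coding-exon rule, and 19459 were kept. The 3 peak lists of the series, for DPF3a, SMAD4 and p300, hold 118277 peaks in all. 786-O is an established clear cell renal cell carcinoma line, which lacks functional VHL. The study asked whether DPF3a, the short isoform of a SWI/SNF chromatin remodelling subunit, meets SMAD4 and p300 on chromatin. The p300 group had 2 libraries, made with an antibody to p300 from chromatin fixed with formaldehyde, and the authors combined them into 1 list. The labels do not say whether these cells overexpress DPF3a, and the peak calls are not said to have used an input library. No spread between libraries can be given, so no test between them was made. Shares are followed in parentheses by Wilson intervals at 95%, and these, like all intervals given, hold the counting error alone. Coordinates are in hg38 and count from 1.

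p300, encoded by EP300, is a histone acetyltransferase and a transcriptional coactivator. It has no sequence-specific DNA contact of its own and is brought to promoters and enhancers by transcription factors, among them CREB, SMADs, HIF and p53. There it acetylates histone tails, including lysine 27 of histone H3, a mark of active enhancers.

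The sequence under some of the strongest sites is shown first. Each window holds the summit and 50 bases to either side. The windows are those of the 12 strongest promoters of protein-coding genes and the 6 strongest distal summits, by fold enrichment and more than 100000 bp from an assembly gap, less windows that touched an annotated exon and those on 1 chromosome that is not printed. Distal means more than 2500 bp from every start of a protein-coding transcript. Capitals mark matches, on either strand, to TGACGT (part of the cyclic AMP response element), the AP-1 consensus TGACTCA, the ETS consensus CCGGAAGT, the E-box CACGTG, the NRF1 core CGCATGCG, the SP/KLF consensus GGGCGG, the CCAAT box, or the core of the A box (GCNNAGTGG) and of the B box (GTTCNANTC) of tRNA genes, in which N stands for any base. The promoter window of CTNNA3 (αT-catenin) was at chr10:67764460-67764560 and that of GMNC, a regulator of multiciliated cells, at chr3:190862969-190863069, both printed on the minus strand, the strand of the gene. These were the only promoter windows left of the 12, with summits 873 and 325 bp upstream of the start. Windows at a start itself are therefore not shown. The distal windows, printed on the plus strand and named after the nearest protein-coding gene, were at chr2:164523001-164523101 (GRB14), chr5:156991822-156991922 (TIMD4), chr7:15643459-15643559 (MEOX2), chr2:82790638-82790738 (SUCLG1), chr12:132394126-132394226 (GALNT9) and chr1:149708615-149708715 (FCGR1A).
CTNNA3: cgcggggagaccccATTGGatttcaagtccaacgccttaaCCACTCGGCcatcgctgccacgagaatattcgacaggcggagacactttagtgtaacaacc
GMNC: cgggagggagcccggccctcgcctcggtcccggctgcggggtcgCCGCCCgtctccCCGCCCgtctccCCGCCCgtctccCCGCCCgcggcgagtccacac
GRB14: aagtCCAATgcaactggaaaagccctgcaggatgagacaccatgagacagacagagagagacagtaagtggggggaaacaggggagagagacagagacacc
TIMD4: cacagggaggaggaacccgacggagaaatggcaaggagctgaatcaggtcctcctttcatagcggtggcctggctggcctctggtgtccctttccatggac
MEOX2: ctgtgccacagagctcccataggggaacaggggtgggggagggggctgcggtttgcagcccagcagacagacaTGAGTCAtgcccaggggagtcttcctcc
SUCLG1: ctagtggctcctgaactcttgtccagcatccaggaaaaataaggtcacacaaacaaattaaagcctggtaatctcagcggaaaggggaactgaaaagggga
GALNT9: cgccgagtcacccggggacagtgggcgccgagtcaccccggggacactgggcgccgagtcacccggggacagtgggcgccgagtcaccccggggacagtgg
FCGR1A: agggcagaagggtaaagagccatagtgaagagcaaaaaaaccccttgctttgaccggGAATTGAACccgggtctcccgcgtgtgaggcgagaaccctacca

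The windows had little in common. The CTNNA3 window held the A box core, and the summit lay inside TRS-TGA1-1, a serine tRNA gene of the RefSeq annotation. The FCGR1A window held the B box core. These are short strings: the A box core was in 2.17% of windows of this length centred on canonical protein-coding starts and in 1.72% of those 1000 bp beside distal summits, and the B box core in 0.408% and 0.886%. At distal summits themselves the A box core was in 3.29% and the B box core in 0.769% of windows. The GMNC window was 83.2% G and C and held 4 copies of the SP/KLF consensus GGGCGG. These copies lay in a tandem repeat with a unit of 12 bases, and 61.8% of the window's bases equalled the base 12 positions further on. The MEOX2 window held the AP-1 consensus TGACTCA. The GALNT9 window was a tandem repeat, in which 98.0% of the bases equalled the base 51 positions further on. No window held the full cyclic AMP response element TGACGTCA.

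The strength of the sites was described next. Fold enrichment is the ratio of the summit pileup to the local background, each plus 1 read, as the peak caller gave it, and together with the deposited −log10 p it fixes the height in whole reads. The median fold enrichment was 4.92 (quartiles 4.26 and 5.37, range 2.44 to 31.3) and the median height was 23 reads (quartiles 16 and 30, range 14 to 170). Most sites therefore rest on few reads. A count of 23 has an exact 95% Poisson interval of 14.6 to 34.5 reads, and the lowest, 14, has one of 7.65 to 23.5. The median fold enrichment is also the value that 14 reads give over the genome-wide background of 2.05 reads, which 1884 summits had. Of all summits, 4181 (21.5%) lay at that background, 3469 of them with 14 to 16 reads. Fold enrichment exceeded 8 at 330 summits (1.70%) and 10 at 61.

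The peaks nearest to the calling threshold differed in place from the strongest. When the 19459 summits were ordered by −log10 q and split into 4 equal groups, the promoter share was 21.2% (20.05 to 22.3) in the lowest group and 56.2% (54.8 to 57.6) in the highest. A promoter is here any summit position up to 1000 bp before or 100 bp after a transcript start in GENCODE 44. The share of peaks that touched neither a DPF3a nor a SMAD4 peak by at least 1 bp was 55.5% (54.1 to 56.9) in the lowest group and 3.56% (3.07 to 4.11) in the highest. The median height was 15 reads against 33 reads. Depth and place therefore moved together along the list, and their parts were not tested.

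Of the kept summits, 7338 (37.7%, 37.0 to 38.4) were in promoters, 8664 (44.5%, 43.8 to 45.2) elsewhere in a gene and 3457 (17.8%, 17.2 to 18.3) in intergenic sequence. A gene is here any annotated gene of any biotype, lncRNA genes and pseudogenes included. Of the gene body summits, 2225 (25.7%) were in no exon or intron of a canonical protein-coding transcript. The study, with its own annotation of the full p300 list, reported a larger intergenic share and smaller promoter and gene body shares. Promoter peaks had a median height of 27 reads over a median background of 4.94, and were 759 bp wide at the median. Gene body peaks had 19 reads over 2.92 and intergenic peaks 18 reads over 2.60. The median fold enrichment was nevertheless lower in promoters, at 4.75 (quartiles 4.05 and 5.53), than in gene bodies, at 4.92 (4.40 and 5.28), and intergenic sequence, at 4.92 (4.47 and 5.25), with overlapping quartiles. The order of the classes thus depended on whether reads or fold enrichment was taken. Only 5.08% of promoter peaks (4.60 to 5.61) touched neither other list, against 43.8% of gene body peaks (42.8 to 44.9) and 43.4% of intergenic peaks (41.7 to 45.0). Within introns of canonical protein-coding transcripts, first introns held 7.83 summits per Mb (2164 in all) and later introns 4.30 (3635 in all). The promoter window ends 100 bp downstream, so summits just beyond it count as gene body and can fall in first introns. Their part in the first-intron density was not tested.

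Summits near starts lay mostly on the transcribed side. The median distance to the nearest start of any transcript was 1607 bp (quartiles 128 and 13301), and to the nearest protein-coding start 8576 bp. Among the 7931 summits within 1000 bp of a protein-coding start, 66.2% (65.1 to 67.2) were downstream of it, and the median position was 69 bp downstream, with quartiles 76 bp upstream and 169 bp downstream. The 50 bp bin with most summits, 1042, reached from 100 to 150 bp downstream. This bin lies just outside the promoter window, so the window counts fewer genes than a symmetrical one: 5765 genes with 100 bp downstream, and 8253 with 1000 bp on either side. The farthest summit from a protein-coding start, 3993038 bp, had SRGAP2C, a human-specific SRGAP2 copy, as its nearest gene.

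**Figure D1:**
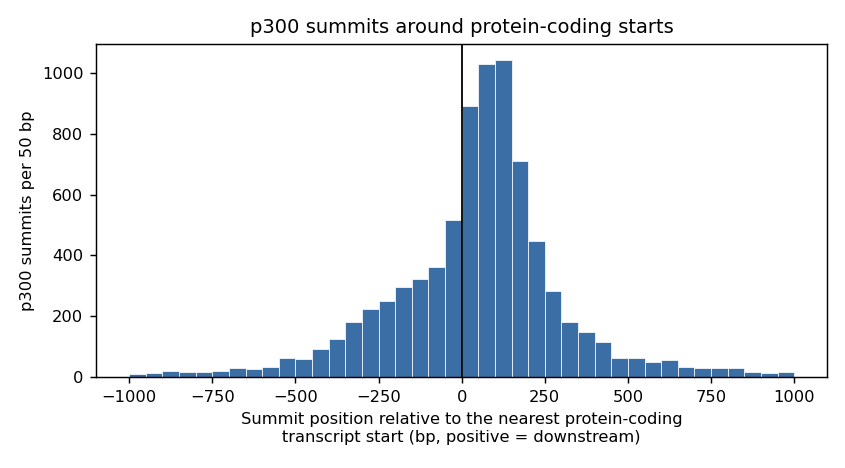
Number of p300 summits per 50 bp (vertical axis) by position relative to the nearest protein-coding transcript start (horizontal axis, bp, positive is downstream), for the 7931 summits within 1000 bp. The bars are highest between 0 and 200 bp downstream, with the maximum of 1042 summits at 100 to 150 bp.

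Protein-coding genes made up the largest share of the targets. A promoter summit was found at 5765 of 19626 protein-coding genes (29.4%, 28.7 to 30.02), at 1916 of 18756 lncRNA genes (10.2%, 9.79 to 10.7), at 202 of 14835 pseudogenes (1.36%) and at 62 of 1877 miRNA genes (3.30%). Of the lncRNA genes, 1053 had a summit that lay in no protein-coding promoter. This count includes summits just over 100 bp downstream of a protein-coding start, so some of these are still beside a protein-coding gene. The start nearest to a summit was that of a protein-coding gene for 64.2% of summits, of a lncRNA gene for 21.3% and of a pseudogene for 9.30%. Among named lncRNA genes with a summit outside protein-coding promoters, chosen after the values were seen, LINC00652 had a fold enrichment of 11.2, LINC00240 of 10.7 and ZCCHC14-DT of 10.3. ZCCHC14-DT starts beside the zinc finger gene ZCCHC14, and its summit was only 155 bp from a start of that gene. The LINC00240 peak also overlapped the tRNA gene TRI-TAT2-2, 190 bp from the summit, and is given again below. MIRLET7I, the gene of the let-7i miRNA, had the highest value among miRNA genes outside protein-coding promoters, 8.03 with 39 reads. The rRNA class had RNA5S12 and RNA5S6, copies of the 5S rRNA gene, at 9.19 and 7.55, both within 100000 bp of an assembly gap. Copies of 5S are near identical, so reads cannot be assigned to 1 of them with certainty.

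Most promoters had a single site. Of the 5765 genes, 5377 had 1 promoter summit, 368 had 2 and 20 had 3 or more. DST, which encodes the cytoskeletal linker dystonin and has 20 annotated protein-coding starts, had 4, the most of any gene. Of the 5491 summits in protein-coding promoters, 4834 were in the promoter of 1 gene, 632 of 2 and 25 of 3 or more, and 565 (10.3%, 9.51 to 11.1) were in promoters of genes on both strands. The median height was 28 reads in both groups, and the median fold enrichment was 4.76 for promoters on both strands and 4.72 for those on 1 strand. Their peaks were 869 bp wide (quartiles 640 and 1130) against 780 bp (537 and 1032). The strongest of them, by fold enrichment, was in the promoters of ELP4, an Elongator subunit, and IMMP1L, a mitochondrial inner membrane peptidase subunit (9.88, 33 reads). Next came ARMT1 with RMND1 (9.65, 59 reads) and SOCS4 with WDHD1, a replication factor (9.52, 28 reads).

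The promoters with the highest fold enrichment belonged to genes of varied function. CTNNA3 had 12.4 (87 reads, 873 bp upstream), EIF3E, a subunit of translation initiation factor eIF3, 11.9 (70 reads, 28 bp downstream) and TMEM106B, a lysosomal membrane protein, 11.5 (58 reads, 2 bp downstream). GMNC had 11.3 and MRPS14, a mitochondrial ribosomal protein, 11.03. They were followed by DDX20, an RNA helicase of the SMN complex (10.7), UBE2F, a NEDD8-conjugating enzyme (10.4), and the phosphoinositide phosphatase SACM1L (10.4). CFAP418, a protein of cilia and photoreceptors (10.4), STARD4, a sterol carrier (10.4), HSPA6, an inducible HSP70 chaperone (10.3), and TMEM30A, a flippase subunit (10.2), completed the 12. All of these peaks also touched a DPF3a and a SMAD4 peak.

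At 4 of these 12 promoters the peak lay on a tRNA gene. This was looked for after the printed windows had been seen, with the tRNA genes of the RefSeq table (GRCh38.p14), because the GENCODE file does not list nuclear tRNA genes. The CTNNA3 summit was inside TRS-TGA1-1 (chr10:67764503-67764584), and the HSPA6 summit was inside TRG-GCC2-1, a glycine tRNA gene (chr1:161523847-161523917). The SACM1L summit was 32 bp from TRR-ACG2-1, an arginine tRNA gene (chr3:45688999-45689071), and the CFAP418 summit was 6 bp from TRS-AGA2-5. In such places the deposited peak does not separate the tRNA gene from the protein-coding promoter beside it. In all, 39 protein-coding genes with a promoter summit had that summit in a peak on a tRNA gene.

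Across the genome, 165 of 443 tRNA genes (37.2%, 32.9 to 41.8) overlapped a kept p300 peak, against 1 of 87 tRNA pseudogenes of the same table (1.15%, 0.203 to 6.23). tRNA genes are transcribed by RNA polymerase III from promoters inside the gene. They took up 138 peaks, 0.709% of the list, and in 132 of these the summit was in the gene or within 100 bp of it. The fold enrichment of these peaks had a median of 6.13 (quartiles 4.60 and 7.82) and their height one of 45 reads (29.3 and 70). All other kept peaks had 4.92 (4.26 and 5.36) and 23 reads (16 and 30), so the ranges between quartiles overlapped for fold enrichment and barely did for height. The background at tRNA peaks was also higher, with a median of 6.48 reads against 3.76. Of the 330 summits with a fold enrichment over 8, 32 (9.70%, 6.95 to 13.4) were on tRNA genes, and of the 169 summits with more than 60 reads, 43 (25.4%, 19.5 to 32.5).

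The tRNA peaks were not confined to promoters of protein-coding genes, nor to the p300 list. Of the 138, 37 were in a protein-coding promoter and 92 were distal, and 120 (87.0%, 80.3 to 91.6) touched a DPF3a or SMAD4 peak. Of all kept peaks, 5669 of 19459 (29.1%) touched neither, and of the highest group by −log10 q 3.56% touched neither. The contact of tRNA peaks was thus not particular to them among strong peaks. After TRS-TGA1-1, the highest values were those of TRN-GTT2-3, an asparagine tRNA gene (10.8, 52 reads), TRI-TAT2-2, an isoleucine tRNA gene 190 bp from its summit (10.7, 40 reads), and TRG-GCC2-3 (10.7, 48 reads). The peak of TRI-TAT2-2 is the one given above for LINC00240. The 155 tRNA genes of chromosome 6 had a peak in 33 cases (21.3%, 15.6 to 28.4), and the 288 others in 132 (45.8%, 40.2 to 51.6). Arginine tRNA genes had a peak in 16 of 26 cases, the most by number, whereas alanine tRNA genes had one in 6 of 38 and cysteine tRNA genes in 5 of 29. Many tRNA genes exist in near-identical copies, so the assignment of reads to 1 copy is uncertain.

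**Figure D2:**
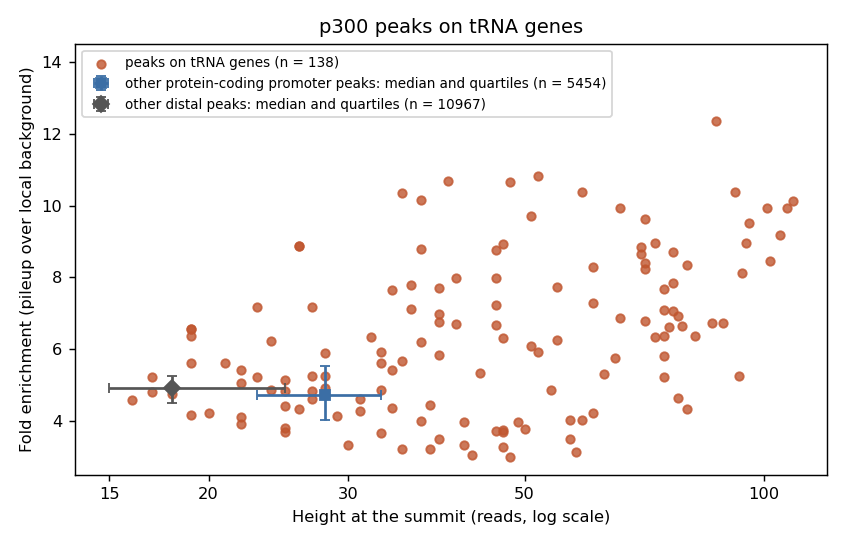
Fold enrichment (vertical axis) against height at the summit in reads (horizontal axis, log scale) of the 138 p300 peaks on tRNA genes, 1 point each, with the medians and quartiles of the other protein-coding promoter peaks and the other distal peaks. The tRNA points reach a fold enrichment of 12.4, and their median height of 45 reads lies above the upper quartiles of both other classes.

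Among distal sites more than 100000 bp from a gap, the 6 of highest fold enrichment had between 35 and 157 reads. The first was in GRB14, an adaptor of the insulin receptor (13.6, 50 reads, 45444 bp from the start), followed by one 28646 bp upstream of TIMD4, a phosphatidylserine receptor of macrophages (13.3, 65 reads). The third was 43174 bp inside the homeobox gene MEOX2 (12.9, 59 reads). The nearest gene was SUCLG1, a subunit of succinyl-CoA ligase, for the fourth (12.03, 37 reads), although at 1668592 bp. GALNT9, a glycosyltransferase gene, was nearest to the repeat printed above (11.97, 157 reads), and FCGR1A, an IgG receptor gene, to the window with the B box (11.8, 35 reads). The first 5 touched both a DPF3a and a SMAD4 peak, and the sixth a DPF3a peak only.

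Over the whole list the strongest loci were next to assembly gaps. The summit of highest fold enrichment, 31.3 with 170 reads, was on chromosome 21 at position 8234523, which is 26449 bp from a gap and 2287030 bp from TPTE, the nearest protein-coding gene. The next 3 were on chromosome 3 at 93470595 (19.7, 234 bp from a gap), chromosome 16 at 46390700 (19.4, 10018 bp) and chromosome 17 at 26603911 (17.1, 11225 bp). A second site on chromosome 21 (15.8) lay beside RNA5-8SN2, an rRNA gene, and touched neither other list. A site whose nearest start was that of RNU1-2, a U1 snRNA gene, had 13.6 with 83 reads. Of the 10 summits of highest fold enrichment, 7 lay within 100000 bp of a gap, compared with 128 (0.658%) of all kept summits. By −log10 q only 3 of these 10 stayed among the first 10, where a site 76721 bp from KLF6, a zinc finger factor, and one 73223 bp from SEC61G, a translocon subunit, entered.

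Base composition and consensus sequences were then counted within 50 bp of the summits. Promoter windows of protein-coding genes had a median of 68.3% G and C (quartiles 61.4 and 74.3), close to the 66.3% of windows centred on all canonical protein-coding starts (57.4 and 74.3). Distal windows had 54.5% (50.5 and 59.4), against 40.6% (33.7 and 49.5) at 1000 bp to either side. Distal windows that touched neither other list had 53.5% against 36.6% beside them, and those that touched one had 55.4% against 45.5%. Distal summits were thus richer in G and C than their flanks in both kinds of site.

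At promoters the consensus counts depended on where the comparison window was placed. The cyclic AMP response element TGACGTCA, to which CREB binds, was in 0.273% of promoter windows (0.166 to 0.450). It was in 1.197% (1.05 to 1.36) of windows centred on canonical starts, but in 0.0510% (0.0277 to 0.0938) of windows 100 bp downstream of them, a comparison added after the summit positions had been seen. The ETS consensus CCGGAAGT was in 1.07% (0.834 to 1.38), against 3.93% at starts and 0.245% downstream, and CACGTG in 2.55% (2.16 to 3.001), against 3.30% and 1.01%. The YY1 consensus AAGATGGC was in 1.07% of promoter windows, against 3.01% at starts and 0.678% downstream, and the NRF1 core CGCATGCG in 0.164%, against 1.22% and 0.0713%. GGGCGG was in 30.8% (29.6 to 32.0), against 36.0% and 24.2%. For each of these 6 strings the share at promoter summits lay between that at the starts and that downstream. Not every string searched did so: GATAAG was in 0.965%, against 1.23% and 1.31%, and the B box core in 0.765%, against 0.408% and 0.448%. With 100 bp to either side, AAGATGGC was in 2.13% of promoter windows, below both the 3.78% at starts and the 3.58% downstream.

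Distal summits differed by whether they touched another list. TGACTCA was in 5.60% of distal windows (5.18 to 6.04) and in 1.68% (1.52 to 1.86) at 1000 bp to either side. It was in 9.60% (8.86 to 10.4) of the 5762 distal windows that touched a DPF3a or SMAD4 peak, against 1.68% in their flanks. In the 5297 that touched neither it was in 1.25% (0.981 to 1.58), against 1.67% (1.44 to 1.93) in theirs, with overlapping intervals. The TEAD consensus GGAATG was in 8.16% (7.48 to 8.89) against 5.50% in the first kind, and in 2.81% (2.40 to 3.29) against 4.96% (4.56 to 5.39), below its flanks, in the second. TGTGGT, the core bound by RUNX factors, was higher than the flanks in both kinds, with 10.7% against 7.32% and 10.1% against 6.80%. So was GGGCGG, with 7.65% against 2.67% and, in the second kind, 5.74% against 0.944%. The A box core was in 2.69% against 2.26% in the first kind and in 3.95% against 1.14% in the second. The B box core was below its flanks in the second kind, at 0.529% against 0.982%. GATAAG, the GATA factor consensus, was below the flanks in both, at 1.86% against 2.94% and 0.944% against 3.59%. A match is an exact string and does not show that the factor was bound.

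Genes with many sites were long. Counting the gene and 5000 bp upstream, 10007 of 19626 protein-coding genes (51.0%) had at least 1 summit, 6723 had 1, 1961 had 2, 647 had 3, 305 had 4 and 371 had 5 or more. The median length was 244 kb for genes with 5 or more and 27.3 kb for all. OXR1, an oxidation resistance gene, had 23 summits over 483 kb, TRIO, a guanine nucleotide exchange factor, had 19 over 389 kb, and VPS13B, a lipid transfer protein, 19 over 864 kb. HDAC9, a histone deacetylase, also had 19, WDR70 had 18, SEMA5A, an axon guidance protein, had 17, and RUNX1, a transcription factor, had 17. NIPBL, the cohesin loader, DLG1, a scaffold protein, and CDH18, a cadherin, had 15 each.

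Most of these peaks touched neither other list, except in TRIO and RUNX1. Of all kept peaks 29.1% (5669 of 19459) touched neither, and of the distal peaks on chromosomes 5, 7 and 8, 66.7%. In OXR1, 20 of 23 peaks touched neither other list, in VPS13B 18 of 19, and in NIPBL, DLG1 and CDH18 14 of 15 each. In TRIO 12 of 19 and in RUNX1 12 of 17 touched a DPF3a or SMAD4 peak. Of the 10 genes, 8 lay on chromosomes 5, 7 and 8, and so did 156 of the 371 genes with 5 or more summits (42.0%), against 12.7% of all protein-coding genes. Counting only summits that touched another list, which was tried after the data were seen, left 92 genes with 5 or more, 20.7% of them on these chromosomes. The first were then TRIO and RUNX1 with 12, AOPEP, an aminopeptidase gene, with 11, and ROR1, a receptor tyrosine kinase gene, and PRKAG2, an AMPK subunit gene, with 10.

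**Figure D3:**
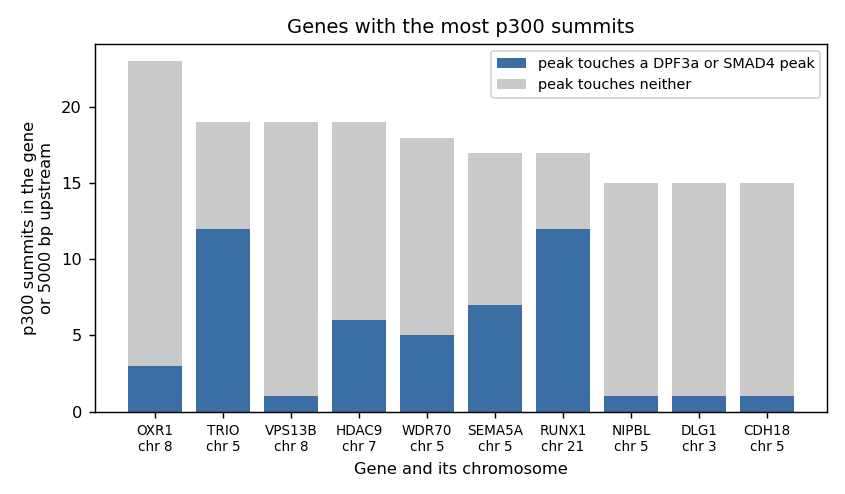
Number of p300 summits in the gene or 5000 bp upstream (vertical axis) for the 10 protein-coding genes with the most, each with its chromosome, split by whether the peak touches a DPF3a or SMAD4 peak. OXR1 had 23 summits, 20 of them touching neither, and RUNX1 had 17, of which 5 touched neither.

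Relative to length, and among genes of at least 20 kb with at least 3 summits, MPC2, a subunit of the mitochondrial pyruvate carrier, had the most, 15.7 per 100 kb (4 summits). It was followed by ALOXE3, an epidermal lipoxygenase (14.2), PAIP1, a poly(A)-binding protein partner (13.7), HOXA3 (13.6, 7 summits) and TGFBI, a matrix protein (12.6, 5 summits). The ALOXE3 count includes peaks on the tRNA genes TRK-TTT3-5, TRL-TAG1-1 and TRR-TCT2-1, with summits upstream of ALOXE3 and fold enrichment from 3.21 to 3.76. Of the 7 HOXA3 summits, 5 were in a promoter of any transcript, but none in a protein-coding promoter of HOXA3. The 7 peaks of HOXA3 and the 5 of TGFBI all touched another list, whereas 4 of the 5 of PAIP1 touched neither.

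Distal sites seldom formed runs. When summits at most 12.5 kb apart were joined, 8595 of 11059 distal summits stood alone, 925 pairs formed, and 186 clusters of 3 or more held 614 summits (5.55%). The largest had 6 summits over 38.4 kb, 5 of them in NIPBL and the last beyond its end. There were 9 clusters of 5, of which those with the highest single fold enrichment come first here. The first, 15.6 kb long on chromosome 11, was a group of tRNA genes: each of its 5 peaks overlapped at least 1 tRNA gene, 7 tRNA genes in all. The nearest protein-coding starts, of OSBP, which encodes an oxysterol-binding protein, and OR4D9, were 39.03 to 49.6 kb away. The next were near the cadherin gene CDH9 (12.8 kb), in the focal adhesion kinase gene PTK2 (30.1 kb) and 434 to 469 kb from PTGER4, a prostaglandin receptor gene (34.5 kb). Among the others, named because they tie in number, were those with the integrin gene ITGA3, TRIO, the cadherin gene CDH6 and the transcription factor gene MYC nearest. In the clusters nearest to NIPBL, CDH9 and CDH6 no peak touched another list, whereas each peak did at the tRNA genes and in the clusters nearest to ITGA3 and MYC.

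The density of sites differed more between chromosomes for distal than for promoter summits. Distal summits per 10 Mb ranged from 3.87 on X and 6.514 on chromosome 14 to 63.3, 63.8 and 86.5 on chromosomes 8, 5 and 7. Protein-coding promoter summits on chromosomes 5, 7 and 8 together were at 16.5 per 10 Mb, slightly below the 19.3 of the other chromosomes, whereas distal summits were at 71.1 against 31.4. These 3 were grouped after the data were seen and have the highest distal densities, so the distal difference is set by the choice. Chromosomes 9 and 1 came next, at 59.0 and 52.7, with 50.4% and 44.7% of distal peaks touching neither other list. Of the distal peaks on chromosomes 5, 7 and 8, 66.7% (65.1 to 68.2) touched neither other list and the median height was 16 reads, against 39.4% (38.3 to 40.5) and 19 reads elsewhere. With 1 list and no control library used here, reads gained by a whole chromosome and reads gained at its binding sites cannot be told apart. The promoter share of genes was lowest on X, 15.2% (130 of 853), and highest on chromosome 18, 38.2% (100 of 262).

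**Figure D4:**
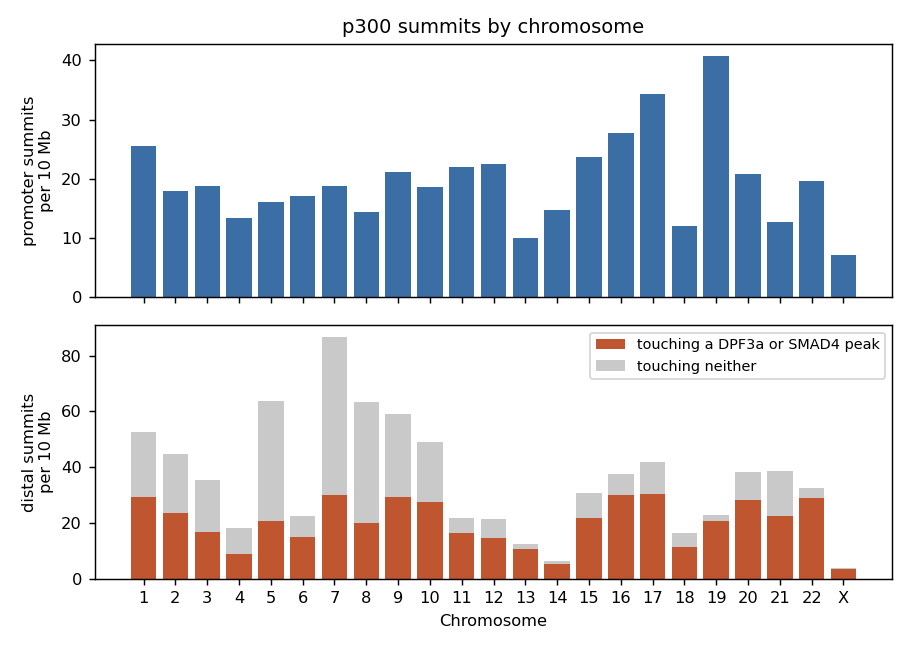
p300 summits per 10 Mb of ungapped sequence by chromosome, in promoters of protein-coding genes (upper panel) and distal (lower panel, split by whether the peak touches a DPF3a or SMAD4 peak). The distal bar of chromosome 7 reaches 86.5 and that of X 3.87, while promoter bars range from 7.23 on X to 40.7 on chromosome 19.

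Target gene functions were described with 25 gene lists from general knowledge, each set against the 29.4% of all protein-coding genes with a promoter summit. Lists of genes that most cells use had larger shares: 40 of 78 mitochondrial ribosomal protein genes (51.3%, 40.4 to 62.1), 40 of 82 cytosolic ribosomal protein genes (48.8%, 38.3 to 59.4), 19 of 39 proteasome subunits (48.7%, 33.9 to 63.8), 26 of 55 translation initiation factors (47.3%, 34.7 to 60.2) and 35 of 77 splicing factors (45.5%, 34.8 to 56.5). After MRPS14 and EIF3E, the strongest of these promoters were those of PSMD10 (8.29), PSMD6 (8.06), MRPS28 (7.74), PRPF39 (7.69) and RPL15 (7.17). Of 38 cyclins and cyclin-dependent kinases, 18 had a promoter summit, led by CCNB2, the mitotic cyclin B2 (9.03, 42 reads). Of 508 zinc finger genes named ZNF, 171 had one (33.7%, 29.7 to 37.9). ZNF839, the first of them at 8.64, was again beside a tRNA gene, TRI-AAT5-4.

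Chromatin regulators also had larger shares. Of 27 SWI/SNF subunits, 15 (55.6%, 37.3 to 72.4) had a promoter summit, among them PHF10 (7.44), SS18 (6.16), SMARCE1 (6.11), SMARCA2 (5.56) and PBRM1 (5.19), whose product is often lost in this cancer, whereas DPF3 had none. Of 22 histone deacetylases and corepressors, 12 had one, with SIRT6 (8.66, 88 reads), HDAC8 (6.71), NCOR1 (5.43) and HDAC2 (5.41) first. Of 22 acetyltransferases and coactivators, 11 had one, between 3.10 at CRTC2 and 4.98 at NCOA1. With a score over 100, which 9.67% of all protein-coding genes passed at a promoter, the acetyltransferase list fell to 1 of 22 and the deacetylase list to 2 of 22, both below the share of all genes.

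EP300 itself had a kept summit 2 bp downstream of a start, with a fold enrichment of 3.83 and 24 reads, and a second one 16415 bp from the nearest protein-coding start (4.89, 33 reads). The other 12 p300 peaks over EP300 had summits in its coding exons and were left out, with fold enrichment from 3.69 to 7.53. CREBBP, which encodes the close relative CBP, had 16 peaks from 3.25 to 6.88, and each of them was left out by the same rule. Each of the 28 left-out peaks touched neither a DPF3a nor a SMAD4 peak.

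The shares of the hypoxia, NF-κB, p53 and CREB and ATF lists were each above that of all genes. Those of the immediate early and interferon-stimulated lists, given below, were not. The intervals of the p53 list and of the CREB and ATF list (25.4% to 74.6%) include the 29.4% of all genes. Of 28 hypoxia factors and targets, 15 (53.6%, 35.8 to 70.5) had a promoter summit, led by HIF1A (6.65), ANKRD37 (6.33), the oxygen sensor EGLN1 (6.11) and the demethylase KDM3A (5.83). Glycolytic members were lower, with PGK1 at 5.19, LDHA at 3.38 and ENO1 at 3.13. EPAS1, which encodes HIF-2α, had a single summit and none in its promoter, and VEGFA and CA9 had none. Of 20 NF-κB targets, 10 had one (29.9% to 70.1%), with BIRC3, an apoptosis inhibitor, first (8.50, 41 reads), and then REL (6.55), VCAM1 (5.91) and CXCL2 (5.83), while IL6 and CXCL8 had no summit. Of 20 p53 targets, 9 had one (25.8% to 65.8%), led by SESN1 (7.53), FAS (7.31) and ZMAT3 (5.47). CDKN1A had a summit in the gene or 5000 bp upstream but not in a promoter. Of 12 CREB and ATF factors, 6 had one, with ATF6 (6.47), ATF7 (5.41), CREM (4.89) and ATF3 (4.53) first.

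Of 24 genes of TGF-β signalling, the pathway in which SMAD4 acts, 12 (50%, 31.4 to 68.6) had a promoter summit. SMAD2 had the highest value (7.69, 33 reads), followed by the ubiquitin ligase SMURF2 (5.83), the receptor TGFBR1 (4.97) and the pseudoreceptor BAMBI (4.57). The inhibitory SMAD7, itself a target gene of the pathway, had 3.09. SMAD3 had 5 summits but none in a promoter. With a score over 100, 2 of 24 were left (8.33%), below the share of all genes.

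The remaining lists had shares below that of all genes, some by little. Of 26 immediate early genes, 7 had a promoter summit (26.9%, 13.7 to 46.1), led by the nuclear receptor NR4A2 (6.45), and KLF6, KLF4 and EGR1 were between 3.54 and 3.81. Of 24 interferon-stimulated genes, 6 had one (25%, 12 to 44.9), with the RNA sensor IFIH1 first (7.39). Of 26 mesenchymal and matrix genes, 5 had one (19.2%, 8.51 to 37.9): SNAI2 (6.52), VIM (4.19), COL6A2 (4.04), COL1A1 (3.91) and ZEB1 (3.87), whereas SNAI1 had none. The intervals of these 3 lists include the share of all genes, and with a summit in the gene or 5000 bp upstream the lists stood above it, at 61.5%, 54.2% and 61.5% against 51.0%. Of 20 renal transcription factors, 3 had one (15%, 5.24 to 36.0), HNF4G (6.38), TFAP2A (3.85) and WT1 (3.66), while PAX8 and PAX2, which mark renal epithelium, had 2 summits each outside promoters, and LHX1 had none. Of 25 transporters and markers of the differentiated nephron, 3 had one (12%, 4.17 to 29.96): SLC12A1 (6.56), SLC4A4 (5.56) and SLC34A1 (3.43). The intervals of the renal factor and nephron lists also include the share of all genes. Of 39 HOX genes, 5 had one (12.8%, 5.60 to 26.7), with HOXA4 first (5.53).

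Replication-dependent histone genes had a promoter summit in 13 of 69 cases (18.8%, 11.4 to 29.6) but a summit in the gene or 5000 bp upstream in 47 (68.1%, against 51.0% of all genes). These genes are short and clustered, so 1 summit can fall within reach of several. Genes of other tissues served as a check. Of 381 olfactory receptor genes none had a promoter summit. Taken as 3 genes of the total, the limit that a count of 0 allows is a share of 0.787%, and the Wilson upper bound is 0.998%. Of 94 keratin-associated protein genes none had one either, with limits of 3.19% and 3.93%. Of 27 liver and blood markers only CYP2E1 had one (5.91, 17 reads). ALB, HBB, PTPRC and CD3E had no summit at all.

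**Figure D5:**
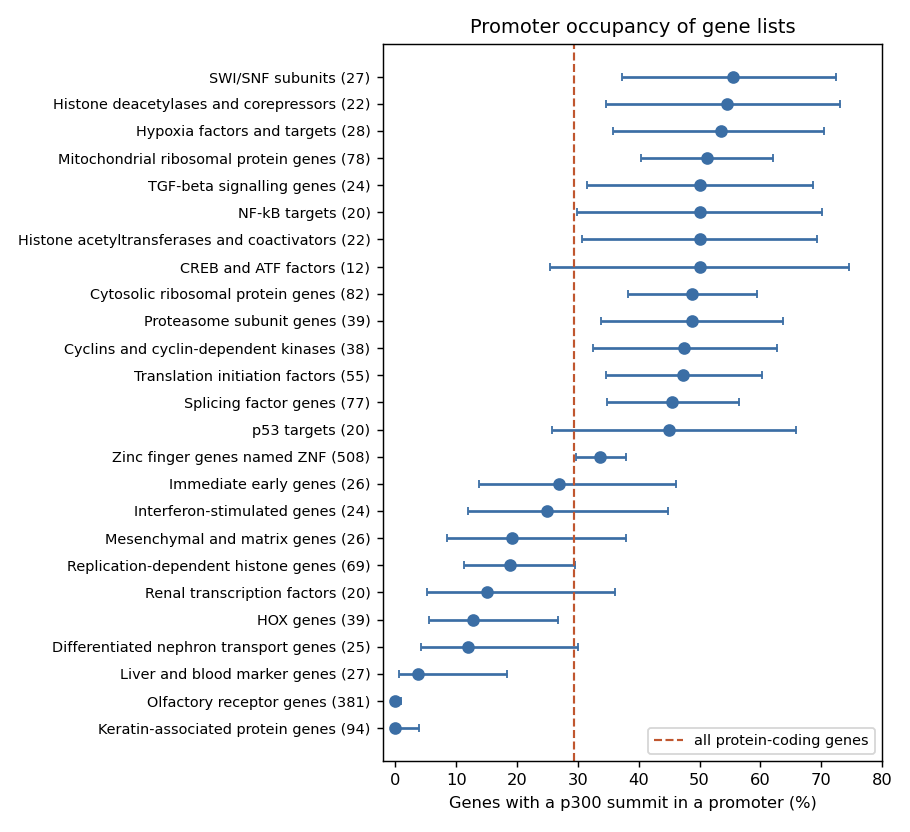
Share of genes with a p300 summit in a promoter (horizontal axis, %) for 25 gene lists, with the number of members in parentheses and 95% Wilson intervals, against all protein-coding genes (dashed line, 29.4%). SWI/SNF subunits stand highest at 55.6%, and olfactory receptor and keratin-associated protein genes at 0.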

How the data were processed

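p300 ChIP-seq libraries of 786-O cells were assigned to their group by title. The authors trimmed reads with cutadapt, mapped them to hg38 with Bowtie2 2.3.5.1, removed low-quality, mitochondrial and duplicate reads and called peaks with MACS2 2.2.5. How both libraries were combined is not given in the sources used here. The deposited score is 10 times the −log10 q, rounded down, and the authors kept scores over 50. The authors also deposited the fold enrichment, a ratio, and −log10 p and −log10 q values. Summit height and background were computed from fold enrichment and −log10 p, and gave the latter back to within 0.00021. With fragments of 200 bp and a genome of 2.7 Gb, both assumed, the depth was 27.6 M reads. The sources used here name no input for peak calling. If none was used, the background is that of the ChIP libraries themselves, and a region with more reads for any reason can count as enriched.

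Peaks were assigned with GENCODE 44 in Python 3.11.15 (numpy 2.4.6, pandas 2.3.3, scipy 1.17.1), and the code was tested on simulated data. Assembly gaps were runs of at least 100 N. tRNA genes came from RefSeq (GRCh38.p14). The text names the 10 summits of highest fold enrichment, the 12 strongest promoters and 6 strongest distal summits over 100000 bp from a gap, the 10 genes with most summits and 5 with most per 100 kb, the 5 largest clusters, up to 4 members of each list with the strongest promoters, and EP300 and CREBBP. Other genes were named after their values were seen. Members and lists were chosen with earlier results of these data known. Alternatives were other starts, windows, scores, gene reaches and rankings, and those on DPF3a or SMAD4 contact, chromosomes 5, 7 and 8, tRNA genes and downstream windows were added after seeing the data. Some members of the lists are not reported here.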

Additional observations from a re-analysis of the deposited data

How the results depend on the processing

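No paired analysis was possible because the 2 libraries were deposited as 1 list, and leaving out a library was not possible for the same reason. With a score over 100 in place of 50, 3913 summits were left, and 446 with a score over 200. The share of summits in promoters, 37.7%, was 28.2% with protein-coding starts only, 19.0% with canonical protein-coding starts only, 47.5% within 1000 bp on either side, 57.0% with a score over 100, 36.9% with far coding-exon summits kept and 42.0% without chromosomes 5, 7 and 8. The number of protein-coding genes with a promoter summit, 5765, was 1898 with a score over 100. The median distance to a start, 1607 bp, was 8576 bp for protein-coding starts and 173 bp with a score over 100. The number of genes with 5 or more summits, 371, was 1 with a score over 100, 92 with summits that touched a DPF3a or SMAD4 peak only, and 215 without chromosomes 5, 7 and 8. Of the 10 strongest loci, 3 stayed when ranked by −log10 q and 3 when summits near gaps were left out. With windows of 100 bp to either side, TGACGTCA was in 0.728% of promoter windows and TGACTCA in 11.99% of distal windows, as wider windows hold more matches. Of the 25 gene lists, 21 stayed on the same side of all genes with a score over 100, and 21 with a summit in the gene or 5000 bp upstream. The exceptions were acetyltransferases, deacetylases, TGF-β signalling and ZNF genes in the first case, and immediate early, interferon-stimulated, mesenchymal and histone genes in the second. Counting error is largest at the summits of 14 to 16 reads.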
